A study of Caenorhabditis elegans with 2 samples.

Results

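Of the 30000 candidate regions called for the C. elegans zinc finger protein ZTF-22 on the pooled reads of both replicates, 634 had their summit, the base of highest signal, at a piRNA gene. A region was taken as a member when its summit lay within 500 bp of a piRNA gene of the Ensembl WBcel235 annotation and not within 500 bp of a tRNA, snoRNA, snRNA or miRNA gene. Of these members, 448 were on chromosome IV, where they made up 10.4% of the 4300 candidate regions, and 186 were on the other chromosomes. The data are ChIP-seq of whole young adults of strain OP676, which carries the mutation unc-119(tm4063) and the transgene wgIs676. The transgene encodes ZTF-22 with TY1, EGFP and 3xFLAG tags, written ztf-22::TY1::EGFP::3xFLAG, and it also restores unc-119(+) function. The animals were of both sexes and were collected at 68 hours after synchronisation by bleaching and L1 starvation. Chromatin was precipitated with an anti-GFP antibody, although the labels also list ztf-22 as the antibody. There was 1 group with 2 biological replicates, no second condition and an unknown read depth, so all comparisons were between regions. The transgene's expression level relative to the native gene is not given in the sources used here.

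piRNAs are short RNAs bound by Argonaute proteins of the PIWI class, and in C. elegans they are the 21U-RNAs bound by PRG-1 in the germline, where they silence foreign and transposon sequences. Most are made from a separate short transcription unit each, and most of these units lie in clusters on chromosome IV. Transcription depends on an upstream element with the core letters CTGTTTCA and on the proteins PRDE-1, SNPC-4, TOFU-4 and TOFU-5. In whole adults the germline is one of several tissues that contribute chromatin, so a region cannot be assigned to the germline from these lists.

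The upstream sequences are shown for 5 of the 6 strongest chromosome IV members that had a CTGTTTCA element within 60 bases upstream of a piRNA gene in reach, because that element marks where the piRNA machinery acts and the ZTF-22 summits can be set against it. Each line gives the 60 bases upstream and the piRNA gene on its own strand, from the RefSeq genome of WBcel235 (ce11). Capitals mark CTGTTTCA and the 21 bases of the piRNA gene.
21ur-8200, chrIV:5590992-5591072, minus strand: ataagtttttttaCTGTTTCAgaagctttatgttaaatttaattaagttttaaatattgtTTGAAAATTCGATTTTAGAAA
21ur-12855, chrIV:16181491-16181571, minus strand: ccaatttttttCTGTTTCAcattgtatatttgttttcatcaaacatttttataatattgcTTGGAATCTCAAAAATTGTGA
21ur-2469, chrIV:13919597-13919677, plus strand: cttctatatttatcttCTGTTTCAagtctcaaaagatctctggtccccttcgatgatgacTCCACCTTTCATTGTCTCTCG
21ur-8851, chrIV:17264108-17264188, plus strand: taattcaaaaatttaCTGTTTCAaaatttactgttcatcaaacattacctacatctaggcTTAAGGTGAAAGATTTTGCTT
21ur-15257, chrIV:9677414-9677494, minus strand: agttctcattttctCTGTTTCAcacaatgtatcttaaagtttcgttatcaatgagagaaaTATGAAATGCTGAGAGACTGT

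In these 5 units the element began 44 to 49 bases before the piRNA gene, close to the median of 46 bases over all piRNA genes that had it. The ZTF-22 summits did not lie on these elements. The summit lay 290 bp upstream of the 5′ end of 21ur-8200, 217 bp upstream of that of 21ur-2469, 276 bp upstream of that of 21ur-8851 and 337 bp upstream of that of 21ur-15257. It lay 459 bp downstream of the 5′ end of 21ur-12855.

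The sequences at the summits themselves are shown for the 2 strongest chromosome IV members, in 101 bases centred on the summit on the plus strand. They show what lay under the highest signal. Capitals mark CTGTTTCA at 21ur-8200 and the whole piRNA gene at 21ur-13200, which is on the minus strand.
21ur-8200, chrIV:5591252-5591352: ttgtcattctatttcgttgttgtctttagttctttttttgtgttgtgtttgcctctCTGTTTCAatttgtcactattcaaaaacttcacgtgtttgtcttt
21ur-13200, chrIV:16181002-16181102: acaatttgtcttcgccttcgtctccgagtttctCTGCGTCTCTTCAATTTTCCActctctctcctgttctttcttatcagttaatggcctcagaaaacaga

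At 21ur-8200 a CTGTTTCA other than the one upstream of that gene lay close to the summit, and this region was the only 1 of the 14 optimal chromosome IV members with the element within 50 bp of the summit. The word CTGCGTCTC recurs at the strongest ZTF-22 summits of this data set as a whole, and it was looked up here with that known. At 21ur-13200 it forms the first 9 capitals, so it lies within the piRNA gene, and 21ur-13200 was the only 1 of 15363 piRNA genes to hold it on either strand. Within 50 bp of the summit the word was found in 8 of 448 chromosome IV members (1.79%, 95% exact binomial interval 0.774 to 3.49) and in 67 of 3852 other chromosome IV regions (1.74%, 1.35 to 2.2). Both shares were above the 0.393% of windows of the same length tiled along the chromosome. Since the word was taken up from the strongest summits of these same data, nothing follows from that excess.

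The comparison of signal ranks asked whether regions at piRNA genes were among the stronger ZTF-22 regions of the chromosome. The share of members that were optimal peaks was close to that of all candidate regions of the chromosome. The members' median rank was weaker than that of other chromosome IV regions. The optimal peaks are the 952 regions kept by the authors after a comparison of replicates, and they were the 952 strongest regions of the pooled list. Of the chromosome IV members, 14 of 448 were optimal (3.12%, 95% interval 1.72 to 5.19), against 118 of 3852 other chromosome IV regions (3.06%, 2.54 to 3.66). The other regions include those within 500 bp of a tRNA, snoRNA, snRNA or miRNA gene, which the rule took out of the members only. Of these, 16 were also within 500 bp of a piRNA gene, and 1 of the 16 was optimal. The background was 3.07% of all candidate regions of chromosome IV and 3.17% of all candidate regions. Intervals here and below are exact Clopper-Pearson intervals at 95% and cover counting of regions only, since regions of 1 library are not replicates. With a looser limit, the strongest 3000 pooled regions held 43 chromosome IV members (9.6%) and 390 other chromosome IV regions (10.1%), beside a background of 10.1%.

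The signal value is the authors' own score for a region and was used only to rank regions within a list, with rank 1 the highest. The median rank was 16112 for chromosome IV members and 14913 for other chromosome IV regions, and the median signal values were 47.1 and 48.5. The weaker side of the list, below rank 15000, held 54.2% of the members and 49.5% of the others. The order was not the same everywhere: outside bins of 100 kb with at least 10 piRNA genes, the 46 members had a median rank of 13737 and the others there 14944. In coding exons the medians were 16001 for members and 16399 for others, while in promoter windows they were 15883 and 12824. The plot of ranks shows that the distributions of both chromosome IV groups ran close together, with the members' curve below that of the others over most of its length.

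**Figure D1:**
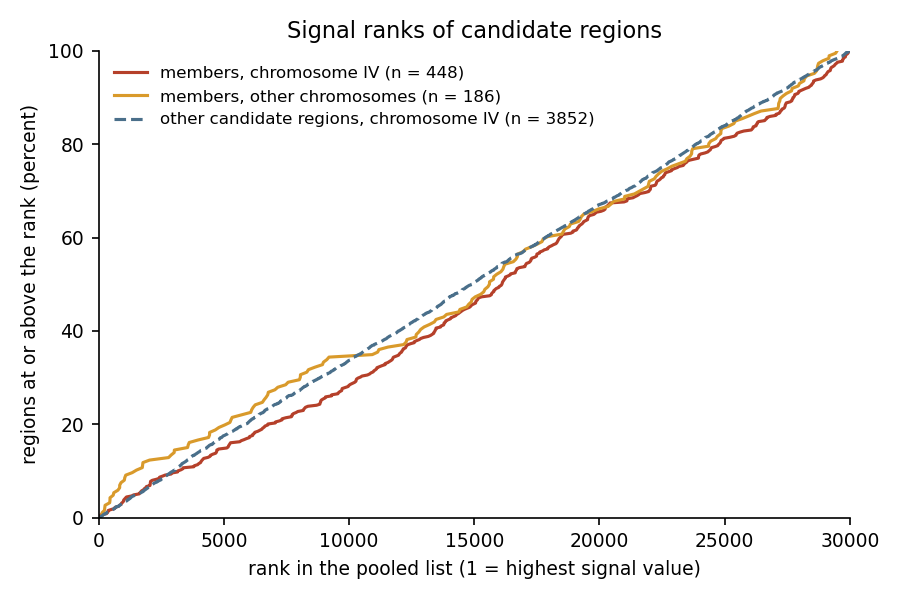
Cumulative share of regions (percent, vertical axis) at or above each rank of the pooled list (horizontal axis, rank 1 is the highest signal value) for chromosome IV members, members of other chromosomes and other chromosome IV regions. Chromosome IV members reached their median at rank 16112 and the other chromosome IV regions at 14913, while the members of other chromosomes started above both curves, with 7.53% optimal.

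The same picture was seen in each replicate's own list of 30000 regions, in which the rule found 588 and 486 members on chromosome IV. Among each replicate's 952 strongest regions were 16 of the 588 members of replicate 1 (2.72%), against 3.39% of the other chromosome IV regions. In replicate 2 these were 18 of the 486 members (3.7%), against 3.22% of the others. The background was 3.31% of chromosome IV regions in replicate 1 and 3.28% in replicate 2, so the order of the groups differed between replicates. The median rank did keep its order: it was 16552 for members and 14912 for others in replicate 1, and 16960 for members and 14835 for others in replicate 2.

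By distance, the band of members within 100 bp of a piRNA gene was the weakest, although not those inside the gene. The 103 members with the summit within 100 bp of a piRNA gene had a median rank of 19176, and 66% of them were in the weaker side of the list. The 12 of them with the summit inside the gene had a median rank of 12346, with 41.7% in the weaker side. The 161 members beyond 100 and up to 250 bp had a median rank of 15125 and the 184 beyond 250 bp one of 15112, near that of the other chromosome IV regions. The band within 100 bp also had the lowest GC content around the summit. Its median was 34.8% in 201 bp, against 39.3% in each of the farther bands. The part of base composition in the rank was not tested.

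The median rank was also weaker in groups with more piRNA genes in reach, although not at each count. The 163 members with 1 piRNA gene within 500 bp had a median rank of 15077, the 174 with 2 to 3 genes one of 15882, and the 111 with 4 or more genes one of 17266. Within the last group the 20 members with 5 genes had a median rank of 22762 and the 18 with 6 genes one of 13061, so there was no steady trend above 4 genes. The optimal shares of the 3 groups were 3.07%, 2.87% and 3.6%, all within the intervals of each other. The members with the most piRNA genes were 21ur-5163 in a coding exon of sqrd-1, a sulfide-quinone oxidoreductase gene, and 21ur-14389 in an intron of semo-1, each with 10 genes in reach. They ranked 15055 and 16245, in the middle of the list. The third, 21ur-14966 in intergenic sequence, had 9 genes in reach and ranked 27050.

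Near the 500-bp limit the values on both sides were as follows. The 31 regions of chromosome IV between 450 and 500 bp from the nearest piRNA gene had a median rank of 16120 and held 0 optimal peaks. The 30 regions between 501 and 550 bp, just outside, had a median rank of 15040 and held 1 optimal peak, 507 bp from 21ur-8451, with rank 326. The members nearest the limit on the inside were 21ur-2711 at 497 bp with rank 17498 and 21ur-2031 at 495 bp with rank 1681, and those nearest on the outside were at 501 bp from 21ur-10311 with rank 2825 and at 504 bp from 21ur-252 with rank 3878.

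The comparison of location asked how the members were spread along chromosome IV. They followed the piRNA clusters, as the rule requires, but candidate regions as a whole were sparse there. Of the 15363 annotated piRNA genes, each 21 bp long, 14714 (95.8%) were on chromosome IV. In bins of 100 kb, 68 bins with at least 10 piRNA genes covered 6.79 Mb, or 38.8% of the chromosome, and held 14453 of its piRNA genes. These dense bins held 402 of the 448 members (89.7%) and 790 of the 3852 other regions (20.5%).

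Almost all dense bins fell in 2 runs. The run at chrIV:4800001-7100000 had 2823 piRNA genes and 511 candidate regions, of which 174 were members. The run at chrIV:13500001-17493829, which reaches the right end of the chromosome, had 11563 piRNA genes and 546 candidate regions, of which 222 were members. The right run thus had 137 candidate regions per Mb and the left run 222, while chromosome IV as a whole had 246 and its bins outside the dense ones 290. Optimal peaks were 14 of the 511 candidate regions of the left run and 14 of the 546 of the right run. Of the members, 4 of 174 were optimal in the left run and 8 of 222 in the right. The background was 3.07% of all candidate regions of chromosome IV.

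The median position of the members was 12460920, against 7708250 for the other regions and 14907620 for the piRNA genes themselves. The members lay to the left of the piRNA genes on the median, and the left run held 38.8% of the members and 19.2% of the piRNA genes of the chromosome. In the plot along the chromosome the 1-Mb bin from 5000001 to 6000000 held the most members, 104 of its 227 candidate regions. The bin from 16000001 to 17000000 held 32 of 121, although it had 2950 piRNA genes against 1638 in the other.

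**Figure D2:**
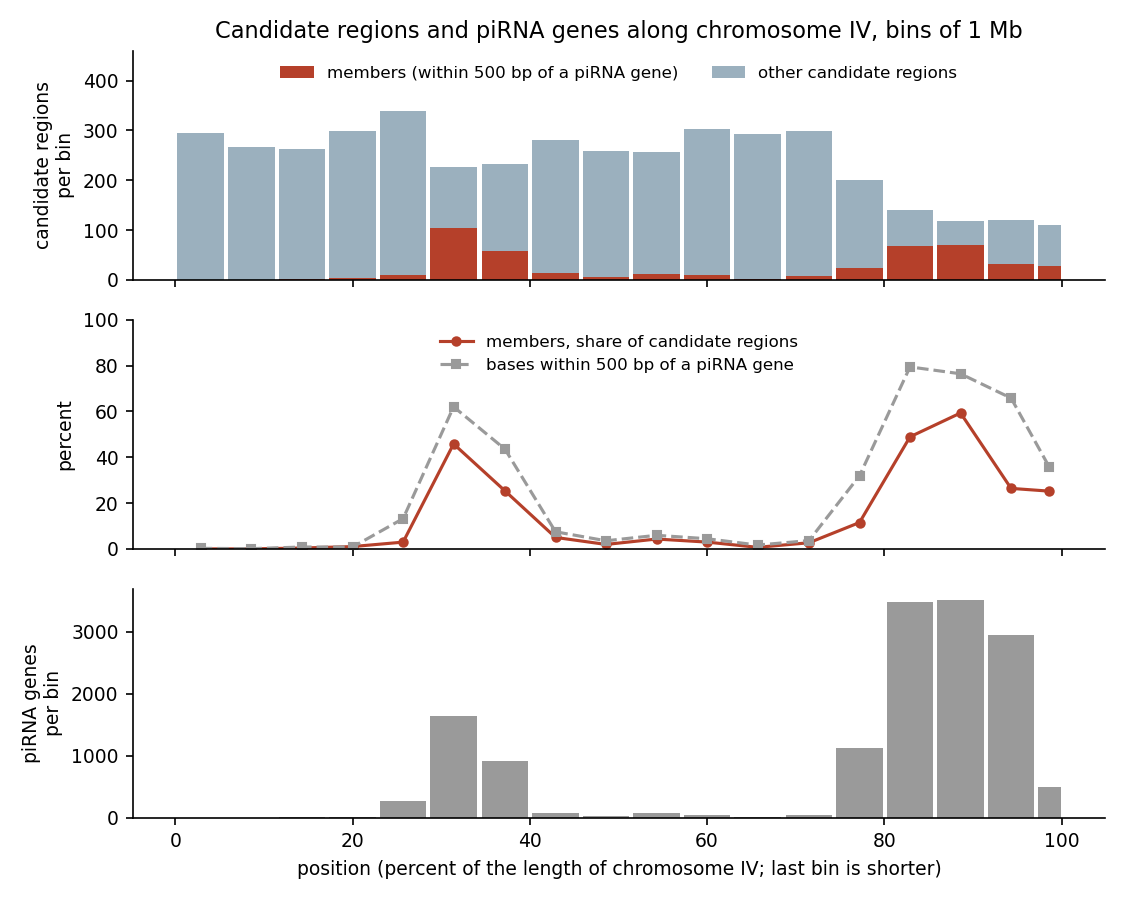
Candidate regions per 1-Mb bin (top; members at the base of each bar, other regions above them), the members' share of candidate regions beside the share of bases in reach of a piRNA gene (middle, percent) and piRNA genes per bin (bottom), against position as a percent of the length of chromosome IV. In the bins with many piRNA genes the members' share lay below the share of bases in reach, for example 45.8% against 62% in the bin centred at 31.4% of the length and 48.9% against 79.4% in that centred at 82.9%.

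Set against the bases where a summit would count as a member, candidate regions were fewer at piRNA genes than elsewhere on chromosome IV. Bases within reach of a piRNA gene, and not of the left-out classes, made up 23.9% of the chromosome (4.18 Mb), but members made up 10.4% of its candidate regions (95% interval 9.52 to 11.4). This came to 107 members per Mb in reach and 289 other regions per Mb out of reach, a ratio of 0.37. The ratio was 0.474 in replicate 1, with 141 and 297 regions per Mb, and 0.408 in replicate 2, with 116 and 284. Optimal peaks had a ratio of 0.377, with 3.35 per Mb in reach and 8.87 out of reach.

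Within the dense bins alone the difference remained, with 102 members per Mb in reach and 277 other regions per Mb out of reach. Outside the dense bins, where 46 members lay in 0.243 Mb of reach, the densities were 190 and 293 per Mb. On the other chromosomes, where 649 piRNA genes are annotated and 0.765% of bases were in reach, the density of candidate regions was nearly equal in and out of reach. It was 294 members per Mb in reach and 311 other regions per Mb out of reach, a ratio of 0.946 in the pooled list, 0.929 in replicate 1 and 0.934 in replicate 2. Optimal peaks there were denser in reach, with 22.1 per Mb against 9.81 out of reach, a ratio of 2.25, and each replicate's 952 strongest regions had ratios of 1.47 and 1.95. Counted from the side of the genes, 1115 of 14714 piRNA genes of chromosome IV (7.58%) and 184 of the 649 elsewhere (28.4%) had a candidate summit in reach. Neighbouring genes can share a summit in these counts.

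The sequence around piRNA genes on chromosome IV was poor in GC, and candidate regions were rich in it. The median GC content of 201 bp around the summit was 38.8% for members and 41.3% for other chromosome IV regions. Over windows tiled along the chromosome the median was 29.9% in reach of a piRNA gene and 35.3% out of reach. The deficit was measured again within bands of GC content over the whole chromosome, and it was present in each of the 6 bands. The band below 25% GC rests on few summits, 7 in reach and 16 out of reach. In the dense bins alone that band held 6 summits in reach and 0 out of reach, while every other band kept the deficit. In windows below 25% GC there were 9.86 summits per Mb in reach and 20.2 out of reach, at 25 to 30% there were 25.7 and 73.7, and at 30 to 35% 112 and 163. At 35 to 40% there were 192 summits per Mb in reach and 294 out of reach, at 40 to 45% 349 and 456, and at 45% or more 616 and 834. The ratio of the density in reach to that out of reach was 0.349 in its lowest band and 0.765 in its highest, and in 5 of the 6 bands it was above the 0.367 found over all windows. Read mappability and the control signal were not analysed here, so their part in the density was not tested.

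**Figure D3:**
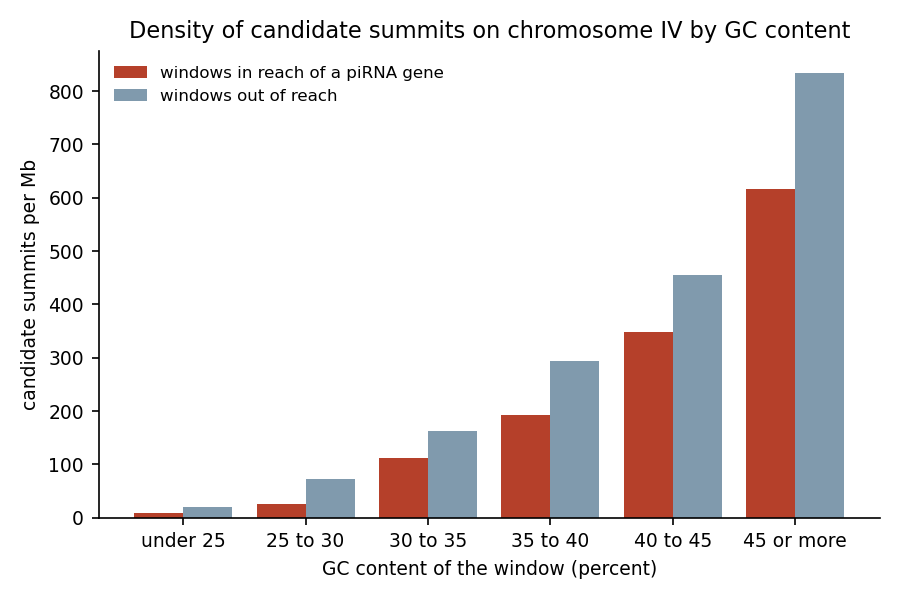
Candidate summits per Mb (vertical axis) on chromosome IV in 201-bp windows in reach and out of reach of a piRNA gene, by GC content of the window (horizontal axis, percent). The left bar is lower than the right in every band, from 9.86 and 20.2 below 25% GC to 616 and 834 at 45% GC or more.

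The offset of the summit from the piRNA gene was measured because the piRNA promoter element lies a short distance upstream of the gene. Summits were not gathered upstream. Of the 448 chromosome IV members, 195 had the summit upstream of the 5′ end of the nearest piRNA gene (43.5%, 95% interval 38.9 to 48.3), while 47.4% of all bases in reach lay upstream. The share was 43.9% in replicate 1 and 42.6% in replicate 2. On the other chromosomes it was 51.6% of 186 members (44.2 to 59).

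The summits lay away from the genes. The median distance from summit to gene was 206 bp for members, against 104 bp for bases in reach, and 103 members (23%) were within 100 bp, against 49.1% of bases. In the replicates' own lists 27.2% and 23.7% of members were within 100 bp. Farther out, 31.5% of members had the summit more than 100 and up to 300 bp downstream of the 5′ end, against 20.3% of bases, and 17.9% lay as far upstream, against 18.3% of bases. The outermost upstream bins also held more members than bases, with 9.38% against 4.12% more than 300 and up to 400 bp upstream and 6.92% against 2.94% more than 400 and up to 500 bp upstream. In 12 members (2.68%) the summit was inside a piRNA gene, against 5.74% of bases in reach. Of these 12 members, 2 were optimal peaks (16.7%, interval 2.09 to 48.4). That wide interval includes the 3.07% of all candidate regions of chromosome IV that were optimal.

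**Figure D4:**
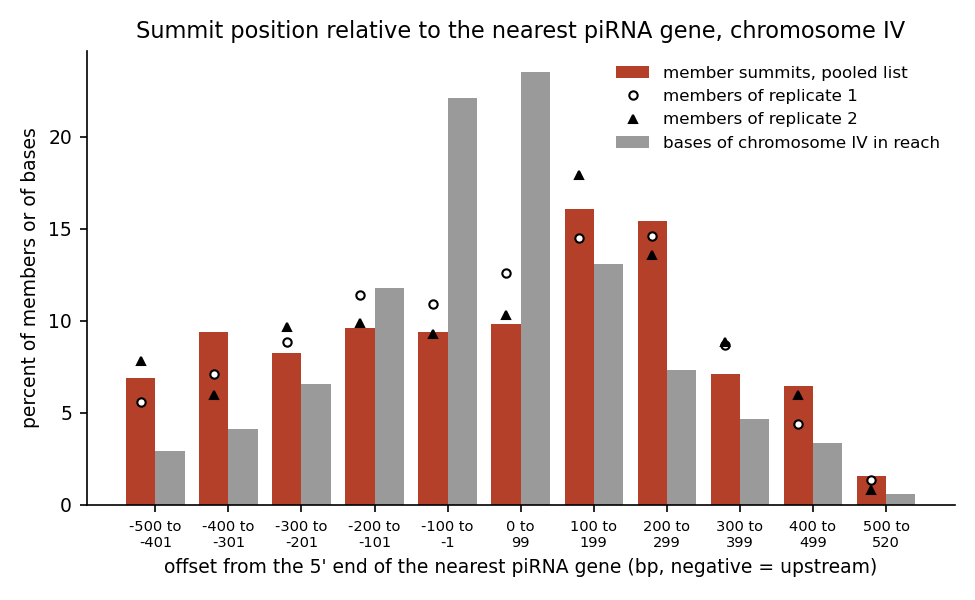
Share of chromosome IV member summits (left bar of each pair, pooled list; circles, replicate 1; triangles, replicate 2) and of chromosome IV bases in reach (right bar of each pair), by offset from the 5′ end of the nearest piRNA gene in bp, with negative values upstream. From 100 bp upstream to 99 bp downstream the member bars, 9.38% and 9.82%, were below those of the bases, 22.1% and 23.5%.

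The element CTGTTTCA was searched on both strands. Within 60 bases upstream of the piRNA gene it was present at 34.7% of piRNA genes on chromosome IV and at 6.78% of those elsewhere. Within 250 bp of the summit it was found in 135 of 448 chromosome IV members (30.1%, 95% interval 25.9 to 34.6) and in 109 of 3852 other chromosome IV regions (2.83%, 2.33 to 3.4). The nearness to piRNA genes that the rule asks for brings the element with it: it was present in 45.1% of windows of the same length whose centre was in reach, and in 3.76% of those out of reach. The members thus held it less often than the windows in reach did, but the windows were not matched to the members by distance. The median distance to the gene was 206 bp for members and 104 bp for bases in reach. Among the 103 members within 100 bp of a piRNA gene the element was found in 49.5%. Within 50 bp of the summit or window centre the element was found in 5.13% of members, 0.441% of other regions and 10.5% of windows in reach.

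The shorter letters GTTTC, which CTGTTTCA contains, were found within 50 bp of the summit in 32.6% of members, 24.6% of other chromosome IV regions and 43% of windows in reach. Members with CTGTTTCA within 250 bp had a median rank of 17608, and 7 of 135 were optimal (5.19%, 2.11 to 10.4). Members without it had a median rank of 15618, and 7 of 313 were optimal (2.24%, 0.904 to 4.55). The intervals overlapped, and the 2 measures pointed opposite ways.

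The classes of sequence at the summit differed between members and other regions. Of the chromosome IV members, 29.2% (95% interval 25.1 to 33.7) were intergenic and 17.2% (13.8 to 21) were in promoter windows, which run 500 bp upstream and 200 bp downstream from the starts of protein-coding transcripts. Of the other chromosome IV regions, 20.3% (19.1 to 21.6) were intergenic and 22.2% (20.9 to 23.5) were in promoter windows. Coding exons held 26.1% of members and 30.8% of others, and introns 22.1% and 21.4%. The class shares of all bases in reach are not given here, so the part of where piRNA genes lie in these differences was not tested.

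The optimal shares were also compared within each class. In promoter windows 3 of 77 members (3.9%) and 46 of 855 others (5.38%) were optimal, in intergenic sequence 6 of 131 members (4.58%) and 40 of 783 others (5.11%), and in introns 4 of 99 members (4.04%) and 22 of 826 others (2.66%). In coding exons 0 of 117 members were optimal (95% interval up to 3.1%), against 5 of 1188 others (0.421%). In UTRs 1 of 15 members (6.67%) and 1 of 137 others (0.73%) were optimal, and in non-coding genes 0 of 9 members and 4 of 63 others (6.35%). In each of the 6 classes the intervals of both groups overlapped, and those of the last pair of classes rest on few members.

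Agreement of the replicates was measured by matching summits within 100 bp. Of the chromosome IV members, 131 (29.2%, 95% interval 25.1 to 33.7) had a match in the lists of both replicates, against 30.5% (29 to 32) of other chromosome IV regions and 30.9% of all regions. A match in neither was found for 11.4% of members and 12% of others. Among optimal peaks, which were kept with a comparison of replicates, 13 of 14 members and 103 of 118 others were matched in both, and nothing about the members follows from these high shares. In 7 of the 14 optimal members, and in 58 of the 118 optimal others, the matched regions were among the 952 strongest of both replicates.

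The 14 optimal members of chromosome IV ranked between 50 and 912 of the pooled list, with signal values of 112 to 255. Of these, 12 lay in dense bins, 6 were intergenic, 4 in introns, 3 in promoter windows and 1 in a UTR. The first was the region of 21ur-8200, with its summit at position 5591302 in an intron of fkh-7, a forkhead transcription factor gene. It had rank 50 and signal value 255, and its matched regions ranked 892 in replicate 1 and 28 in replicate 2.

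The introns of fkh-7 held 3 of the 4 intronic optimal members. The summit at 21ur-9930, position 5590443 and rank 645, was 859 bp from that at 21ur-8200, and the summit at 21ur-3187, position 5607666 and rank 500, was 697 bp upstream of the nearest start of fkh-7. The replicate ranks were 2551 and 650 at 21ur-9930 and 296 and 947 at 21ur-3187, so the last was within the strongest 952 of both. The fourth intronic member, at 21ur-9115, lay in eps-8, which encodes an actin-binding protein, and had rank 377 with replicate ranks 1374 and 453.

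The next 2 by signal were intergenic. The region at 21ur-13200 had its summit at position 16181052, inside the piRNA gene and 3 bp from its 5′ end, with signal value 250, rank 51 and replicate ranks 28 and 101. The region at 21ur-2469 had its summit at 13919440, with signal value 212, rank 95 and replicate ranks 393 and 64. These and the region at 21ur-8200 were the only members among the 100 strongest pooled regions. They were 3 of 448 chromosome IV members, against 12 of 3852 other chromosome IV regions, and counts this small do not order the groups. In each of these 3, both replicates had the matched region among their strongest 952.

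Also intergenic were the members at 21ur-8851 (rank 317, replicate ranks 483 and 356), 21ur-15257 (376, with 391 and 494), 21ur-2814 (829, with 977 and 807) and 21ur-12080 (898, with 1694 and 1103). The summit at 21ur-12080 was inside the piRNA gene. The region at 21ur-15257 was 1 of the 2 optimal members outside the dense bins, in a bin with 8 piRNA genes.

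The optimal members in promoter windows were at 21ur-9371, 158 bp upstream of mfsd-8.1, at 21ur-14738, 114 bp upstream of ipla-7, and at 21ur-15151, 1 bp upstream of H06H21.8. Their pooled ranks were 347, 793 and 912. The replicates differed widely at 21ur-14738, with ranks 10586 and 633, and at 21ur-15151, with ranks 322 and 2062, while 21ur-9371 had 762 and 403. The member in a UTR was at 21ur-763 in tlp-1, which encodes a zinc finger protein of tail development. It had rank 650 and replicate 2 rank 822, and no summit of replicate 1 within 100 bp.

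**Figure D5:**
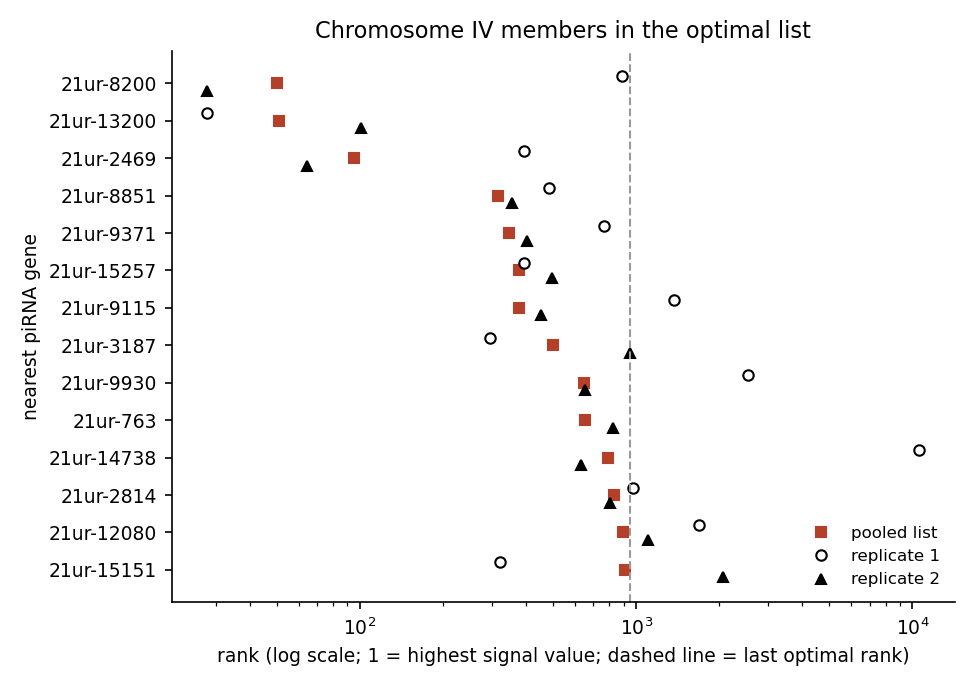
Rank (log scale, horizontal axis; 1 is the highest signal value) of the 14 chromosome IV members in the optimal list, named by the nearest piRNA gene (vertical axis), in the pooled list and in each replicate's own list; the dashed line marks rank 952. In 7 members both replicate ranks lie left of the line, and 21ur-763 has no point for replicate 1.

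Just below the optimal list on chromosome IV stood 21ur-4315 with rank 961, in the promoter window of pqn-22, and 21ur-7851 with rank 994, 134 bp upstream of elo-5, a fatty acid elongase gene. Both were unequal between replicates, with ranks 7686 and 1072 at 21ur-4315 and 6209 and 613 at 21ur-7851. Among the strongest 3000 regions, wide gaps between replicates were also found at 21ur-8870, with ranks 3883 and 27463, at 21ur-4109 in the promoter window of ugt-20, with 23963 and 1177, and at 21ur-13241 in that of clec-72, with 8564 and 1808. On chromosome II the region at 21ur-14806 had ranks 7926 and 621.

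A larger share of the 186 members on the other chromosomes was optimal than of the other regions there. This was 14 of 186 members (7.53%, 95% interval 4.18 to 12.3), against 806 of 25514 other regions (3.16%, 2.95 to 3.38) and a background of 3.19%. The median rank of these members was weaker than that of the other regions there, 15610 against 14990. The members' optimal share was 3 of 30 on chromosome I (10%, 2.11 to 26.5), 4 of 35 on II (11.4%, 3.2 to 26.7) and 5 of 47 on X (10.6%, 3.55 to 23.1). The others' shares were 2.68%, 3.08% and 4.06%, and those of I and X lay within the members' intervals. On V the members' share was 2 of 51 (3.92%, 0.478 to 13.5) against 2.79%, and on III 0 of 23 against 2.98%. In the replicates' own lists 9 of 181 members (4.97%) and 12 of 184 (6.52%) were among the 952 strongest, against 3.15% and 3.16% of all regions of those chromosomes, members included. All 14 optimal members had 1 piRNA gene in reach. That sets them apart from no other group, since piRNA genes were sparse on these chromosomes, with 0.765% of bases in reach. The share over all 186 members is not given here. Promoter windows held 30.1% of these members (23.6 to 37.2), against 20.5% of the other regions, and 7 of the 56 members in promoter windows were optimal (12.5%, 5.18 to 24.1), against 5.41% of other promoter regions.

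The strongest of them were by protein-coding genes. On chromosome X these were the member at 21ur-11723, 361 bp upstream of the nuclear hormone receptor gene nhr-35, with rank 129 and replicate ranks 150 and 146, and the member at 21ur-13424, 641 bp upstream of sem-5, an adaptor protein gene of receptor tyrosine kinase signalling, with rank 134 and replicate ranks 175 and 125. The strongest on chromosome II was at 21ur-13751, 418 bp upstream of vig-1, with rank 231. That on chromosome V, at 21ur-14330, 113 bp upstream of the cathepsin B gene cpr-4, had rank 245 and no match in replicate 1. That on chromosome III, at 21ur-13651, had rank 1043 and was not optimal.

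On chromosome I the strongest member, at 21ur-14981, was 482 bp upstream of ego-1, which encodes a germline RNA-dependent RNA polymerase of small RNA silencing. It had signal value 166, rank 257 and replicate ranks 186 and 246, so both replicates placed it among their strongest regions. The member at 21ur-12279 lay 14 bp upstream of atp-1, which encodes an ATP synthase subunit, and also in the promoter window of mcrs-1, with rank 452. The other optimal members in genes or by their starts were 21ur-14449 in a UTR of zyg-11, a ubiquitin ligase subunit gene (rank 454), 21ur-10121 upstream of the saposin-like gene spp-5 (604), 21ur-13771 in an intron of ast-1, an ETS-domain transcription factor gene (839), 21ur-13288 in an intron of Y47H9B.2 (840) and 21ur-14806 upstream of T24B8.3 (892). Those in intergenic sequence were 21ur-14870 (439), 21ur-12998 (581) and 21ur-14776 (769).

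The genes of the piRNA pathway were examined as possible targets in their own right. Of 50 listed genes 48 were found in the annotation, and 13 of them (27.1%) had a candidate summit in the promoter window, against 28.2% of all 19973 protein-coding genes. Only ego-1 had an optimal peak there (2.08%), against a background of 1.91%. By role, a candidate summit was found at 2 of 9 transcription genes, 3 of 12 processing genes, 0 of 4 Argonaute genes, 6 of 15 genes of downstream silencing and 2 of 8 germ granule genes.

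After ego-1 the strongest was mut-15, a gene of the mutator complex that amplifies small RNAs, with rank 1789 and replicate ranks 17596 and 2288. It was followed by pgl-3, a germ granule component, with rank 6752 and replicate ranks 18670 and 12070, and isw-1, a chromatin remodeller, with rank 7600 and no match in either replicate. No candidate summit lay in the promoter windows of prg-1, prde-1, snpc-4, tofu-4 or tofu-5.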

How the data were processed

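The authors deposited region lists on ce11: 1 per replicate, 1 for the pooled reads and 1 of optimal peaks. The sources used here do not give the peak caller, aligner or read filters. Ranks within a list came from the signal value that the authors deposited per region. The deposited q value, given as -log10 q, was used in 1 alternative only, and the deposited summit offset gave the summit. Read depth is unknown. Genes came from Ensembl release 115 (WBcel235) and sequences from the RefSeq genome of that build. Summits were set against genes by distance, with motifs searched on both strands, in Python 3.11.15 (numpy 2.4.6, pandas 2.3.3, scipy 1.17.1). The helper functions were tested on simulated data. In each replicate's list its 952 strongest regions stood for optimal peaks.

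The members and lists were chosen with earlier results of these data known. No test across regions was run, since regions are not replicates. Named were the 25 strongest optimal members, the 5 with the largest replicate rank difference, the strongest per other chromosome and the 3 with most piRNA genes; the other optimal members of chromosome IV and those next below the list were added after their values were seen. The sequence of 1 further unit is not reported here. The pathway list was set by role. The alternatives were other reaches, other matching and motif windows, classes of sequence, and each replicate alone.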

Additional observations from a re-analysis of the deposited data

How the results depend on the processing

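The median rank of chromosome IV members was weaker than that of the other chromosome IV regions under all 12 alternatives tried, and within the dense bins under all 4; outside the dense bins, which was not among these alternatives, it was stronger, 13737 against 14944. The members' optimal share was above that of the others under 8 alternatives and below it under 5. With the strongest 476 peaks the shares were 1.56% of members and 1.43% of others, and with the strongest 3000 regions 9.6% and 10.1%. Within 100 bp of a piRNA gene there were 103 members, with a median rank of 19176, a dense-bin share of 94.2% (others 26.1%), CTGTTTCA in 49.5% (others 4.6%) and matches in both replicates in 23.3%. These 103 made up 2.4% of candidate regions, while 11.7% of bases were in reach. Within 250 bp there were 264 members, 6.14% of candidate regions, with 23.5% of the others in dense bins and CTGTTTCA in 42% of members. Within 1000 bp the members made up 14.2% of candidate regions, with 82.2% of members and 18.7% of others in dense bins, CTGTTTCA in 22.7% of members and a median rank of 14771 for the others. Under the rule of overlap with a piRNA gene there were 212 members with a median rank of 17075. Bins with at least 30 piRNA genes held 86.4% of members and 14.7% of others.

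The optimal shares of members and others were 4.23% and 4.24% outside coding exons. They were 2.96% and 2.4% outside promoter windows, and 2.99% and 2.28% inside dense bins. In the same order of settings, the median ranks were 16120, 16183 and 16230 for members and 14146, 15363 and 14755 for others. Among summits with 30 to 40% GC, an alternative chosen after seeing the data, the median ranks were 17498 for members and 16298 for others. The optimal shares there were 3.69% of members and 2.39% of others. CTGTTTCA was found within 50 bp in 5.13% of members and 0.441% of others, within 500 bp in 62.3% and 5.79%, in 4.05% of others inside dense bins, and GTTTC in 24.6% of others. With summits matched within 50 bp, 20.3% of members and 18.9% of others were matched in both replicates, and within 200 bp 37.5% and 42.7%, so this order turned. With the wider promoter window 27 pathway genes (56.2%) had a candidate region and 3 (6.25%) an optimal peak, against 45.2% and 2.73% of all genes, so the share with a candidate region was above the background, where it had been below it (27.1% against 28.2%). The cause of these movements was not tested.

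With each replicate alone, the count of members ranged from 486 to 588, their median rank from 16552 to 16960, that of the others from 14835 to 14912, the dense-bin median ranks of members from 16513 to 17109 and of others from 13750 to 14878, the members' share of candidate regions from 11.4% to 13%, their intergenic share from 29% to 33.8% and the others' coding-exon share from 29.3% to 29.7%. The ranking by p-value was not run, since that column holds no value, and ranking by q value in its place kept the order. No paired analysis was possible because there is 1 group. The unknown read depth limits all of these values, and regions without a call at this depth were not seen.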

Other observations

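The rule left out 25 regions that were within 500 bp of a piRNA gene and also of another small non-coding RNA gene, 13 of them at tRNA genes, 6 at snoRNA genes, 6 at snRNA genes and 0 at miRNA genes, by annotated class. Of the regions at snRNA genes, that at 21ur-14704 also lay by mir-1831, which the annotation lists as an snRNA. The strongest, at 21ur-5229 and a tRNA gene on chromosome IV (summit 5967222), had signal value 194 and rank 139, with replicate ranks 89 and 217. It would have been the fourth strongest region at a piRNA gene on that chromosome. The other optimal one, at 21ur-14704 on chromosome II, had rank 877 with replicate ranks 5498 and 877.

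The word CTGCGTCTC was within 50 bp of the summit in 2 of the 14 optimal members of chromosome IV, 21ur-13200 among them (14.3%, 95% interval 1.78 to 42.8). In the other optimal regions there it was found in 7 of 118 (5.93%, 2.42 to 11.8), a share inside that wide interval. Over all 952 optimal peaks it was in 6.41%. It was in 0 of the 186 members of other chromosomes (interval up to 1.96%) and in 1.4% of all candidate regions. The third member by rank that held it, at 21ur-4315, stood just below the optimal list at rank 961.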
